A study of Neurospora crassa with 42 samples.

Results

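The comparison described here is that of Δclr-3 with wild type Neurospora crassa after 10 h without a carbon source, 3 libraries of each strain, which makes 6 of the 42 libraries of the study. The 6 were chosen by their labels, and clr-3 itself (NCU05846) was left out of the comparison. The study sequenced RNA from mycelia of this filamentous fungus in 14 groups of 3 biological replicates, 6 groups at 4 h and 8 at 10 h. All cultures were started from conidia in 100 ml of Vogel's minimal medium with 2% sucrose and grown for 16 h at 25 °C in constant light. The mycelia were then washed in carbon-free medium and moved to fresh medium, either with no carbon source, called starvation here, or with 2% Avicel, which is cellulose in microcrystalline form. Wild type is the strain FGSC 2489. Δclr-3 lacks clr-3 and, per its label, carries no other deletion, and how many isolates of it were used is not given in the sources used here. The other strains starved for 10 h lack os-1, os-2 or cre-1, either alone (Δos-1, Δos-2, Δcre-1) or together with clr-3 (Δos-1Δclr-3, then Δos-2Δclr-3, then Δcre-1Δclr-3). At 4 h, starved wild type, starved Δclr-3 and wild type on Avicel serve as points of reference.

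Neurospora lives on dead plant material and secretes cellulases, hemicellulases and lytic polysaccharide monooxygenases (LPMOs, copper enzymes that cut crystalline cellulose by oxidation). On cellulose, the transcription factor CLR-1 turns on the gene of a second factor, CLR-2, which drives most cellulase genes, while XLR-1 acts on xylanase genes. Without cellulose these genes are kept low, and clr-3 is known from genetics as a repressor of this response, so the comparison asks which genes it holds down in mycelia that have neither sugar nor cellulose.

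Levels are FPKM, the fragments of a gene per kilobase of transcript, scaled to the size of the library. The 6 libraries had an implied depth of 17.6 to 24.3 M (mega) fragments, calculated from the bounds of the FPKM estimates. A gene was called when its log2 fold change was 1 or more in size and limma's p, adjusted by Benjamini and Hochberg, was below 0.05. Fold changes are Δclr-3 against wild type on the log2(FPKM + 1) scale, which understates the change of genes with low levels. A ± after a fold change is its standard error, and values of 3 libraries are given in the order of replicates 1 to 3. Transcripts of clr-3 (VII:4035638-4038540) stood at 27.0, 27.3 and 27.0 FPKM in wild type and at 0.478, 0.340 and 0.551 in Δclr-3, which fits the labels. The 6 markers of conidia and aerial hyphae (con-6, con-8, con-10, con-13, eas and fl) were all present in mycelia of both strains, none was called, and their summed level was 5956, 5769 and 8829 FPKM in wild type and 5107, 5029 and 4677 in Δclr-3.

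After 10 h without carbon, 445 of the 8013 genes tested (5.55%) were called. Loss of clr-3 raised 235 genes (2.93% of those tested) and lowered 210 (2.62%). The rises were far larger than the falls: the 15 highest genes rose by 6.43 or more on the log2 scale, and 1 gene fell by more than 2.53. The genes that rose took 2.11 to 2.18% of the summed FPKM in wild type and 13.7, 18.1 and 17.5% in Δclr-3. As these are bulk samples, less RNA per cell and fewer cells of a kind cannot be told apart. The median fold change of all genes tested was -0.29, slightly below 0. When each library was rescaled by its median ratio, the median became 0.004 and 386 genes were called, 320 higher and 66 lower. All 235 genes that rose were called under that scaling too, but of the 210 that fell 66 were.

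The largest rises were in enzymes that take plant cell walls apart, in cultures to which no cellulose had been added. Of the 15 highest genes, 13 belong to the lists of cellulose-degrading enzymes, of LPMOs with cellobiose dehydrogenase, and of hemicellulose-degrading enzymes. The cellobiohydrolase gene cbh-1 (NCU07340, IV:4311049-4314145), whose product cuts cellobiose units off cellulose chains, was at 28.9, 28.0 and 38.1 FPKM in wild type and at 3058, 6004 and 5090 in Δclr-3. The groups lay far apart, and the fold change was 7.13 ± 0.23 (adjusted p = 1.05e-15). A gene of another cellobiohydrolase family, gh6-2 (NCU09680, V:858215-859731), went from 30.0, 26.4 and 42.7 FPKM to 4165, 9018 and 8325, a rise of 7.67 ± 0.30 that made it the most abundant cellulase transcript of the starved mutant. The endoglucanase gene gh5-1, whose product cuts within the chain, was at 1.90, 2.21 and 3.52 FPKM in wild type and at 263, 526 and 439.6 in Δclr-3 (6.82 ± 0.25, adjusted p = 9.13e-15). The intracellular β-glucosidase gene gh1-1, needed to split imported cellodextrins into glucose, rose from 15.1, 13.9 and 16.7 FPKM to 1329, 2136 and 1900 (6.76 ± 0.14).

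Of the 12 measured cellulose-degrading enzymes, 11 rose, none fell, and the median fold change of the list was 4.84 against -0.29 for all genes. Of the 14 fixed for that list, gh7-4 and gh6-1 did not pass the filter on low values. Besides those above, gh7-1 (6.70), gh6-3 (5.40), gh3-6 (4.28), gh3-4 (3.16), gh3-3 (3.03), gh45-1 (2.56) and gh7-2 (1.35) rose on the log2 scale. The β-glucosidase family gene gh3-5 was the 1 that missed the fold threshold, at 0.38 ± 0.081 and with FPKM of 19.3, 20.7 and 22.3 in wild type and 23.4, 28.9 and 30.4 in Δclr-3. The rises within the list thus ran from 1.35 to 7.67.

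The oxidative enzymes held the single largest change of the comparison. The LPMO gene gh61-4 (NCU01050, V:2769232-2770004) was at 7.67, 6.53 and 17.3 FPKM in wild type and at 3269, 7505 and 5994 in Δclr-3, a fold change of 8.96 ± 0.50 (adjusted p = 7.45e-12). Among its wild type values replicate 3 was the highest, and in Δclr-3 replicate 1 the lowest. In Δclr-3 it stood beside gh6-2 and cbh-1 as one of the most abundant enzyme transcripts. Of 14 measured LPMO and cellobiose dehydrogenase genes (16 fixed, with gh61-10 and gh61-11 below the filter), 9 rose and none fell, with a median of 3.21; of the 11 that carry a symbol in the reference, 8 rose. The others that rose were gh61-5 (7.05), gh61-3 (6.87), gh61-7 (6.80), NCU07898 (5.36), gh61-1 (4.92), cdh-1 (3.95), gh61-6 (2.47) and gh61-2 (1.34). The cellobiose dehydrogenase gene cdh-1, whose product passes electrons to LPMOs, was at 5.03, 4.98 and 5.76 FPKM in wild type and 60.1, 127 and 113 in the mutant, while its paralog cdh-2 was not called (0.03 ± 0.11, adjusted p = 0.802). The remaining 4 members were not called either, with fold changes from -0.60 for NCU07974 to -0.03 for NCU02344.

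Enzymes that degrade hemicellulose, the branched sugar polymers between cellulose fibres, rose as well. The xylanase gene gh10-1 (NCU05924, VI:3456057-3457175) was at 1.84, 1.53 and 3.01 FPKM in wild type and 479, 1153 and 871 in Δclr-3 (8.0 ± 0.30, adjusted p = 1.08e-14). The xylanase gene gh11-2 (NCU07225, V:6198659-6199980) went from 9.09, 9.89 and 11.5 FPKM to 1198, 2288 and 1886 (7.28 ± 0.29). Both were low in every wild type library and above 400 FPKM in every Δclr-3 library. Of the 21 hemicellulose-degrading enzymes, all of them measured, 15 rose and none fell, with a median of 2.79; of the 7 with a symbol, 5 rose. The others with a symbol were gh10-2 (4.28), gh11-1 (3.18) and the β-mannosidase family gene gh2-1 (1.62). The other 10 are known in the reference by identifier only and were placed on the list from background knowledge: NCU08785 (7.99), NCU04870 (6.83), NCU08412 (4.93), NCU07326 (4.00), NCU05159 (3.98), NCU09491 (3.92), NCU05955 (2.79), NCU07351 (2.19), NCU00972 (2.11) and NCU01900 (1.52). NCU08785 (III:5130163-5131035) stood at 1.42, 2.35 and 1.74 FPKM in wild type and at 444, 994 and 834 in the mutant. Xylanase gene gh10-3 (0.34 ± 0.16) and the 5 other members outside the call lay between -0.19 (NCU09652) and 0.66 (NCU09170).

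Pectin-degrading enzymes moved much less. Only NCU08176 (1.42, 3.08 and 1.81 FPKM in wild type, 12.8, 29.5 and 21.6 in Δclr-3, 2.81 ± 0.26) and NCU09924 (3.74, 3.29 and 3.23 and 7.82, 10.5 and 8.81, 1.18 ± 0.13) rose among the 9 measured members, both known by identifier only, and the list's median was 0.24. None of its 3 members with a symbol was called, and asd-1 came nearest at 0.94 ± 0.15; it was called under the median-ratio rescaling. NCU09976 did not pass the filter on low values.

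**Figure D1:**
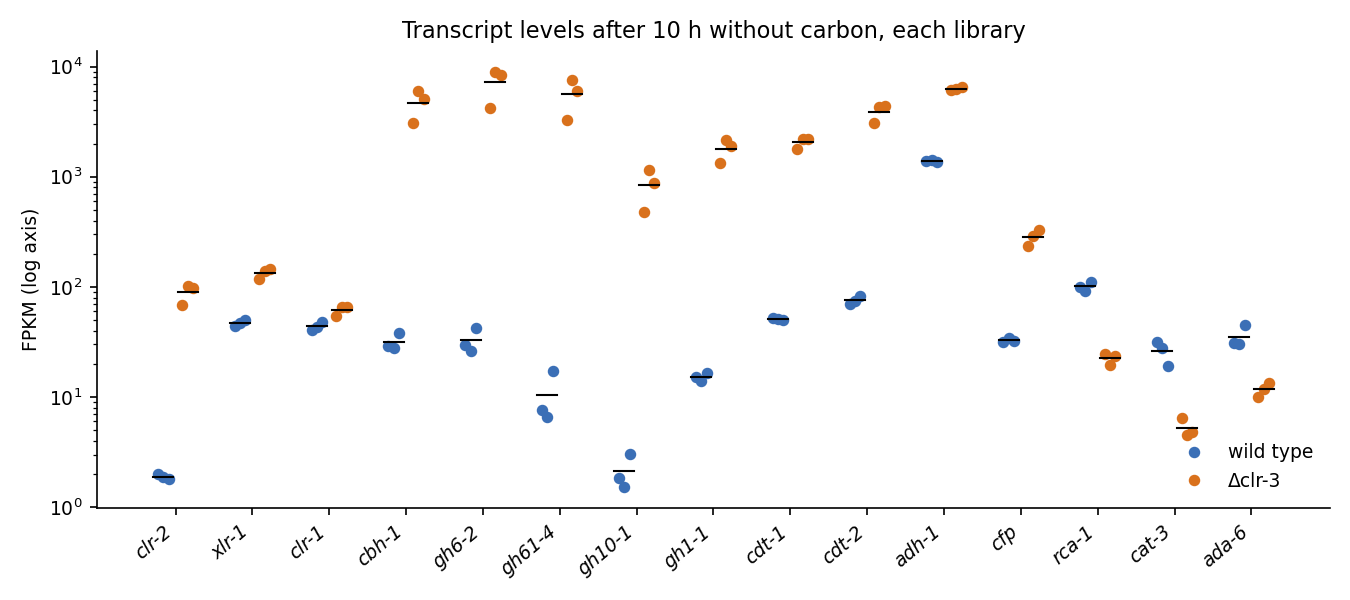
FPKM on a log axis of 15 genes in the 3 wild type (blue) and 3 Δclr-3 (orange) libraries after 10 h without carbon, with black bars at the group means. Cellulase, xylanase, LPMO and cellodextrin transporter genes lie 1 to nearly 3 decades higher in every Δclr-3 library, clr-1 differs little, and rca-1, cat-3 and ada-6 lie lower.

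The 3 Δclr-3 libraries did not hold these enzymes at one level. Replicate 1 had the lowest value of the 3 in all 35 enzymes called in the 3 lists, at a median of 0.546 times the mean of replicates 2 and 3 (range 0.429 to 0.929). Together the 3 enzyme lists made up 0.106, 0.106 and 0.114% of the summed FPKM in wild type and 3.38, 6.89 and 6.10% in Δclr-3. Across all genes tested, the median signed log2 difference of replicate 1 from the other replicates was 0.034. That is a net offset, in which higher and lower genes cancel. Among all 235 genes that rose, replicate 1 was the lowest of Δclr-3 in 173. Among the 210 genes that fell it was the lowest in 50, against 88 for replicate 2 and 72 for replicate 3. The share over all genes tested is not given here. Each of the 35 enzymes was called under every alternative in which it was tested, and without replicate 1 of Δclr-3 the comparison called 498 genes, 244 of them higher.

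The genes on the cellodextrin transporter list rose with the enzymes. Whether the products of all of them carry cellodextrins was not tested here. The cellodextrin transporter gene cdt-1 (NCU00801, I:7121829-7125021) was at 51.7, 51.1 and 50.1 FPKM in wild type and at 1774, 2186 and 2191 in Δclr-3 (5.30 ± 0.11, adjusted p = 7.15e-19). The level of cdt-2 (NCU08114, I:318873-321079), which encodes the other well-known cellodextrin transporter, went from 70.6, 75.1 and 83.3 FPKM to 3052, 4319 and 4353 (5.64 ± 0.14, adjusted p = 5.06e-18). NCU05853, the third member of that list and without a symbol, was already abundant in starved wild type at 581, 598 and 536 FPKM and rose to 2260, 2683 and 2594 (2.13 ± 0.092). All 3 therefore rose, with the smallest fold change in the gene that wild type expressed most. Transporters of single sugars were different: of 11 hexose and pentose transporters only NCU06138 rose, from 22.5, 21.3 and 19.2 FPKM to 63.2, 82.9 and 74.5 (1.75 ± 0.12), and the list's median of -0.30 was close to that of all genes. In pentose catabolism the xylose reductase gene xr, for the first step of xylose use, rose from 11.7, 11.9 and 11.1 FPKM to 25.0, 29.9 and 29.5 (1.21 ± 0.098), and the other 4 members were not called.

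Of the 10 regulators of plant cell wall degradation, clr-2 and xlr-1 rose and rca-1 fell. The level of clr-2 was 2.00, 1.88 and 1.79 FPKM in starved wild type and 68.2, 102 and 97.1 in Δclr-3 (NCU08042, IV:4001190-4004643). The fold change was 4.94 ± 0.14 (adjusted p = 1.63e-16), the largest of the 10 regulators. The xylanase regulator gene xlr-1 was already present at 43.8, 47.5 and 49.7 FPKM and rose to 118, 140.0 and 144 (1.49 ± 0.081, adjusted p = 5.38e-12). The gene of the upstream factor, clr-1, was at 40.5, 43.6 and 48.2 FPKM in wild type and 54.5, 65.7 and 65.4 in Δclr-3; the groups did not overlap, but the fold change of 0.48 ± 0.088 was under the threshold. The carbon catabolite repressor gene cre-1 stood at 42.5, 34.3 and 36.7 FPKM and 75.8, 64.9 and 67.6 (0.86 ± 0.14, adjusted p = 1.02e-05), short of the threshold here and past it under the median-ratio rescaling.

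The regulator gene that fell, rca-1 (NCU01312, V:3617075-3618886), which encodes a Myb-type factor related to FlbD of Aspergillus nidulans, was at 101, 91.5 and 110.3 FPKM in wild type and 24.5, 19.7 and 23.8 in Δclr-3 (-2.11 ± 0.14, adjusted p = 2.12e-10). The other regulators stayed within a narrow band: vib-1 at 0.25 ± 0.080, the glucose-sensing and starch regulator gene col-26 at 0.26 ± 0.092, NCU01856 at 0.41 ± 0.067, NCU09033 at -0.15 ± 0.071 and NCU05414 at 0.12 ± 0.099, none called. None of the 6 genes of the osmosensing kinase cascade was called, with fold changes from -0.75 for the response regulator gene rrg-1 to 0.09 for the kinase gene os-5.

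**Figure D2:**
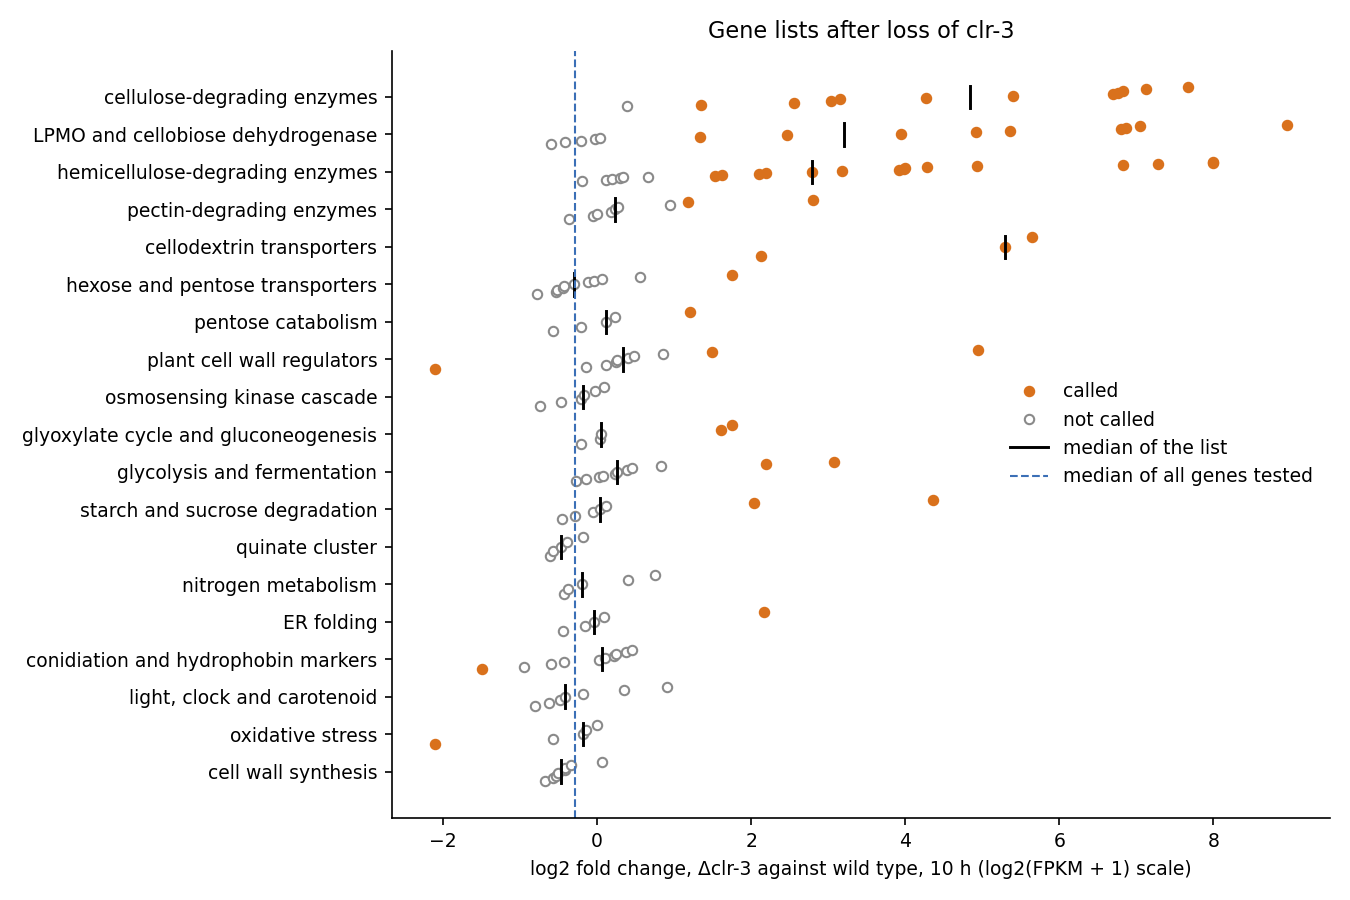
Log2 fold changes of the measured members of 19 gene lists, Δclr-3 against wild type at 10 h, with called genes in filled orange, others open, a black bar at each list's median and a dashed line at the median of all genes tested (-0.29). The cellulose, LPMO, hemicellulose and cellodextrin transporter lists reach far to the right, while most members of the other lists lie near the dashed line.

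Outside plant cell wall breakdown, the genes that rose included a set for fermentation and carbon use. Alcohol dehydrogenase gene adh-1 (NCU01754, II:2539541-2541938) was abundant in starved wild type at 1381, 1407 and 1349 FPKM and reached 6138, 6311 and 6491 in Δclr-3 (2.19 ± 0.16, adjusted p = 5.61e-10). The pyruvate decarboxylase gene cfp, for the step before it, rose from 31.5, 34.6 and 32.1 FPKM to 236, 292 and 331 (3.08 ± 0.30). These were the 2 called of 11 glycolysis and fermentation genes, whose median was 0.26; the glyceraldehyde-3-phosphate dehydrogenase gene gpd-1 came nearest among the rest at 0.83 ± 0.10 and was called under the rescaling. In the glyoxylate cycle and gluconeogenesis list, acetyl-CoA synthetase gene acu-5 rose from 25.6, 23.1 and 24.5 FPKM to 67.0, 83.9 and 78.8 (1.60 ± 0.087). The phosphoenolpyruvate carboxykinase gene acu-6 rose from 17.3, 19.0 and 24.2 to 74.1, 60.5 and 76.1 (1.76 ± 0.27), and the other 3 of the 5, with isocitrate lyase gene acu-3 at -0.21 ± 0.23, were not called. The invertase gene inv, whose product splits sucrose, rose from 61.4, 60.6 and 62.1 FPKM to 275, 232 and 263 (2.04 ± 0.20). It and NCU08746 (10.8, 10.2 and 7.92 FPKM in wild type, 158, 281 and 226 in Δclr-3, 4.36 ± 0.17) were the 2 called of 7 measured starch and sucrose genes, and the glucoamylase gene gla-1 stood at 0.03 ± 0.13.

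A pair of genes without a symbol ranked among the 15 highest although they belong to none of the lists. NCU16673 (III:3224517-3225951) was at 6.22, 10.9 and 8.76 FPKM in wild type and 1622, 1454 and 1471 in Δclr-3 (7.33 ± 0.46). NCU04276 (V:5467674-5469105) went from 46.3, 60.4 and 92.0 FPKM to 5522, 5749 and 5409 (6.43 ± 0.47). Unlike the enzymes, both had close values in the 3 Δclr-3 libraries. They were also above wild type in strains that are not deleted for clr-3: in Δos-2, NCU16673 was at 907, 1120 and 1472 FPKM and NCU04276 at 5934, 6679 and 7409, and in Δcre-1 they were at 178, 582 and 1207 and at 1423, 2757 and 3786. In Δos-1, NCU04276 was at 112, 453.3 and 965.6 FPKM, above wild type. NCU16673 was at 9.306, 29.79 and 31.03 there, with replicate 1 within the wild type range.

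The remaining lists changed little. None of the 5 quinate cluster genes (median -0.46), 5 nitrogen metabolism genes (-0.20), 7 light, clock and carotenoid genes (-0.41) or 8 cell wall synthesis genes (-0.46) was called. Under the median-ratio rescaling the nitrogen median became 0.11, the nitrite reductase gene nit-6 (0.75 ± 0.12 here) and the phytoene dehydrogenase gene al-1 (0.91 ± 0.16 here) were called higher, and the other 3 medians stayed below 0. Of 5 genes for protein folding in the endoplasmic reticulum, NCU02074 rose from 8.95, 8.69 and 10.1 FPKM to 39.4, 46.4 and 49.3 (2.16 ± 0.21), and the chaperone gene grp78 stood at -0.04 ± 0.10.

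The 210 genes that fell did so by smaller steps, and 3 of the 15 lowest carry a symbol. The gene app (NCU04533, VII:1539827-1540778), named for an abundant perithecial protein, was at 176, 143 and 248 FPKM in wild type and 28.2, 48.7 and 39.5 in Δclr-3 (-2.25 ± 0.27, adjusted p = 3.69e-07). The catalase gene cat-3 (NCU00355, III:3561379-3564584) fell from 31.4, 28.1 and 19.2 FPKM to 6.47, 4.53 and 4.77 (-2.11 ± 0.20) and was the 1 called of 5 oxidative stress genes, with cat-1 at -0.58 ± 0.092. The third was rca-1. Of 10 conidiation and hydrophobin genes, ada-6, a regulator of conidiation, fell from 30.8, 30.2 and 45.04 FPKM to 9.98, 11.8 and 13.5 (-1.5 ± 0.26), while the hydrophobin gene eas (-0.94 ± 0.26) and the conidiation regulator gene fl (-0.59 ± 0.15) were not called.

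The largest fall was that of NCU09968 (VI:309546-315476), at 29.1, 32.2 and 32.0 FPKM in wild type and at 0.0215, 0 and 0.0127 in Δclr-3 (-4.99 ± 0.070). Its locus overlaps that of NCU09969 (VI:314113-320071), which was at 3.31, 2.80 and 2.63 FPKM in wild type and had a 0 in each Δclr-3 library, and whose mean was under the filter. How fragments of the overlap were divided is not given in the sources used here. The 2 genes were also near 0 in strains that keep clr-3: NCU09968 was at 0.0191, 0.0131 and 0.169 FPKM in Δos-1 and at 0.0288, 0.0145 and 0.0245 in Δcre-1, against 14.0, 13.7 and 14.4 in Δos-2. At 4 h it stood at 27.0, 26.2 and 25.3 FPKM in wild type and at a listed 0 in each library of Δclr-3. In Δos-2Δclr-3, which lacks clr-3, NCU09968 was at 9.782, 9.235 and 9.465 FPKM at 10 h. The near-0 level thus did not follow the presence or absence of clr-3 across these strains. Whether strain background or loss of clr-3 lies behind the level in Δclr-3 was not tested.

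The other 11 of the 15 lowest have no symbol. NCU04630 fell from 20.2, 17.9 and 21.9 FPKM to 2.58, 2.96 and 2.40 (-2.53 ± 0.19), NCU09568 by a fold change of -2.39 ± 0.31, NCU04482 by -2.21 ± 0.16 and NCU08223 by -2.17 ± 0.25. The fold changes of the rest were -2.13 for NCU00297, -2.07 for NCU00011, -2.03 for NCU01853, -2.03 for NCU01790, -1.94 for NCU05767, -1.86 for NCU07840 and -1.85 for NCU05694. NCU00297 and NCU00011 were low in both strains, below 8 FPKM in every library, so their fold changes rest on few fragments. All 15, and the other called genes named so far, kept their call under every alternative in which they were tested.

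Genes that starved Δclr-3 raised at 10 h were compared with the genes that wild type raises on cellulose. In wild type at 4 h, 251 of 8267 genes (3.04%) were called higher on Avicel than on starvation medium, and 399 under the rescaling. Of the 251, 233 were tested at 10 h, and 100 of them (42.9%) rose in Δclr-3, 2 fell and 131 were not called, with a median of 0.66 against -0.29 for all genes. From the other side, the 100 were 42.6% of the 235 genes that rose. The 35 called enzymes were nearly all among them, 34 of 35. The 2 sets of libraries have no sample in common.

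**Figure D3:**
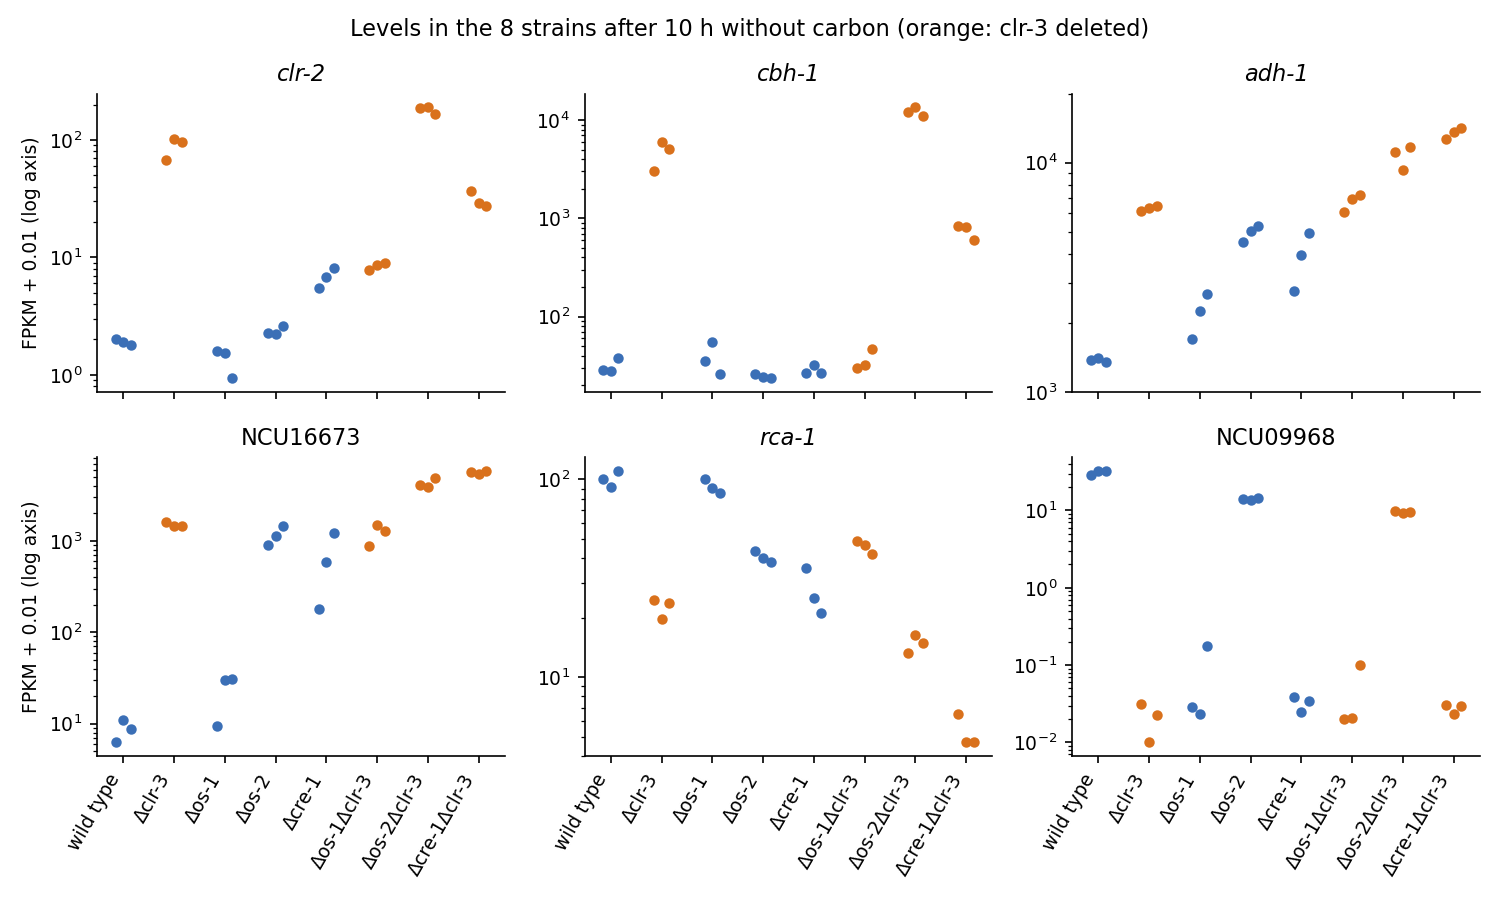
FPKM plus 0.01 on a log axis of 6 genes in each of the 3 libraries of the 8 strains starved for 10 h, with strains that lack clr-3 in orange. clr-2 and cbh-1 are high in Δclr-3 and Δos-2Δclr-3 but cbh-1 is at the wild type level in Δos-1Δclr-3, while adh-1 and NCU16673 are also above wild type in Δos-2 and Δcre-1, and adh-1 to a smaller degree in Δos-1.

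Levels in the other strains starved for 10 h place these genes in different groups, as a description with no test. The level of cbh-1 was 35.2, 54.8 and 25.9 FPKM in Δos-1, 26.3, 24.5 and 23.4 in Δos-2 and 26.6, 32.2 and 26.8 in Δcre-1, all near wild type. Among the double deletions it was 29.8, 32.1 and 46.3 FPKM in Δos-1Δclr-3, 11970, 13580 and 11130 in Δos-2Δclr-3 and 837, 822 and 602 in Δcre-1Δclr-3. The high level of Δclr-3 was thus absent from the strain in which os-1, which encodes an osmosensing histidine kinase, was also deleted. The level of clr-2 in Δos-1Δclr-3 was 7.78, 8.65 and 8.98 FPKM, above wild type and well below Δclr-3, and that of cdt-1 was 386, 484 and 437. In Δcre-1, which keeps clr-3, clr-2 was also above wild type, at 5.44, 6.735 and 8.07 FPKM. It was at 1.575, 1.535 and 0.92 FPKM in Δos-1 and at 2.27, 2.22 and 2.61 in Δos-2. In Δcre-1Δclr-3 it was at 36.8, 28.9 and 27.2 FPKM. The fermentation gene adh-1 had another order: 4502, 5053 and 5298 FPKM in Δos-2, 2765, 3974 and 4950 in Δcre-1 and 6100, 6930 and 7234 in Δos-1Δclr-3, all above wild type. In Δos-1 it was at 1709, 2252 and 2681 FPKM, also above wild type but by less. For rca-1, all 3 libraries of Δos-2, of Δcre-1 and of each double deletion were below wild type, whereas Δos-1 was at 101, 90.2 and 85.0 FPKM.

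The effect of losing clr-3 was set beside that at 4 h, measured in separate cultures. At 4 h, 261 of 8267 genes (3.16%) rose and 616 (7.45%) fell. Of the genes that rose, 99 did so at both times, which is 42.1% of the 10 h list and 37.9% of the 4 h list. Of those that fell, 88 did so at both times, 41.9% of the 10 h list and 14.3% of the 4 h list, and 1 gene in each direction was called the opposite way at 4 h. Under the median-ratio rescaling 350 genes rose and 341 fell at 4 h; 113 then rose at both times, 35.3% of the 10 h list and 32.3% of the 4 h list, and 29 fell at both times, 43.9% and 8.5%. Replicate 2 of wild type at 4 h stood apart for many of these genes, with NCU16673 at 1.28, 490.3 and 1.13 FPKM and adh-1 at 814, 2572 and 1038 in replicates 1 to 3. Without it, 1119 genes were called at 4 h, 347 higher and 772 lower.

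The difference between times was tested directly as the effect at 10 h minus the effect at 4 h, over 12 libraries. Of 8283 genes, the difference was called above 0 in 273 (3.3%) and below 0 in 259 (3.13%); without replicate 2 of wild type at 4 h these were 381 and 417, and under the rescaling 329 and 200. For most genes called at 10 h the test found no difference past the thresholds: 171 of the 234 tested that rose and 186 of the 210 that fell, which does not show that the effects were equal. Among those that rose the difference was above 0 in 51 and below 0 in 12, and among those that fell it was above 0 in 3 and below 0 in 21. These genes were chosen by their effect at 10 h, which is itself a part of the difference. The choice alone tilts these counts, so nothing is concluded from them. Of the 35 called enzymes, 32 also rose at 4 h, and 29 had no called difference. For cbh-1, 4 h levels were 18.8, 16.8 and 20.6 FPKM in wild type and 3163, 5542 and 5763 in Δclr-3, close to those at 10 h (difference -0.76 ± 0.39, adjusted p = 0.166).

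Some of the enzymes called at 10 h did differ. The xylanase genes gh11-2 (1.86 ± 0.42) and gh10-2 (1.91 ± 0.50) and the endoglucanase family gene gh45-1 (1.35 ± 0.24) rose more at 10 h than at 4 h, and NCU09491 (-2.27 ± 0.58) rose less. For gh10-2 the wild type level moved too, at 40.4, 30.5 and 98.2 FPKM at 4 h against 6.36, 6.29 and 5.74 at 10 h. So did that of gh11-2, at 22.7, 32.7 and 44.0 FPKM at 4 h against 9.09, 9.89 and 11.5 at 10 h. In Δclr-3, gh11-2 was at 996, 1873 and 1499 FPKM at 4 h and at 1198, 2288 and 1886 at 10 h. The call of gh10-2 was lost without replicate 2 of Δclr-3 at 10 h (adjusted p = 0.0506). Those of gh11-2, gh45-1 and NCU09491 were kept in all 17 alternatives. Members of the 3 enzyme lists without a call at 10 h also had called differences, all below 0. They were NCU02344 (-2.27 ± 0.27), NCU09775 (-1.98 ± 0.25), gh61-9 (-1.72 ± 0.19) and gh10-3 (-1.30 ± 0.29). Each of them was called higher at 4 h, and their calls under the alternatives are not given here.

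For clr-2 the larger rise at 10 h was less secure. At 4 h it was at 1.62, 3.65 and 1.15 FPKM in wild type and 19.8, 44.7 and 34.3 in Δclr-3, and the difference was 1.5 ± 0.44 (adjusted p = 0.03). That call was lost in 8 of 17 alternatives, with an adjusted p of up to 0.0741: with a pseudocount of 0.1, and without replicate 2 or 3 of Δclr-3 at 10 h, any 1 wild type library at 10 h, or replicate 1 or 3 of Δclr-3 at 4 h. Differences of gh61-6 (1.26 ± 0.41), cdh-1 (-1.36 ± 0.42) and cre-1 (1.47 ± 0.46) were called as well, but were lost in 9, 8 and 11 of 17 alternatives, mostly when a single library was left out. For cre-1, replicate 2 of wild type at 4 h was the highest library, with 30.4, 67.0 and 19.3 FPKM in wild type and 21.1, 22.1 and 22.8 in Δclr-3, and the difference without it was 1.0 (adjusted p = 0.00447).

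**Figure D4:**
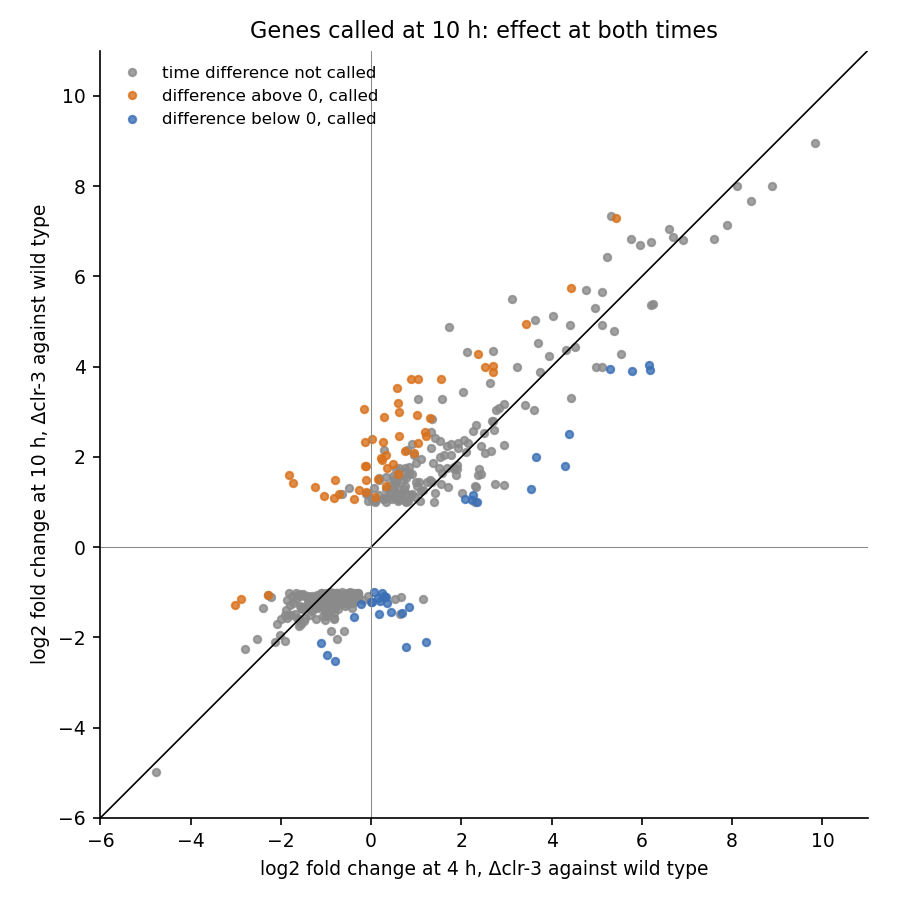
Log2 fold change at 10 h against that at 4 h, Δclr-3 against wild type, for the genes called at 10 h that were also tested at 4 h and for the time difference, with the line of equal effects. Orange and blue points are genes whose difference was called above or below 0; the genes with the largest rises lie near the line, and the genes were selected on the vertical axis.

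Of the 12 largest differences between times, 6 in each direction, the genes with a symbol were am, acu-5, cat-3 and ncw-5. The glutamate dehydrogenase gene am, for ammonium assimilation, was at 288, 253 and 263 FPKM in wild type and 11.3, 26.8 and 9.62 in Δclr-3 at 4 h, but at 30.1, 33.6 and 39.0 and 37.6, 53.1 and 47.2 at 10 h. Its fold change at 10 h was 0.41 ± 0.16, not called, and the difference between times was 4.53 ± 0.41 (adjusted p = 0.000184). The direction for acu-5 was opposite at the 2 times: at 4 h it was at 61.5, 49.4 and 40.7 FPKM in wild type and 13.1, 15.5 and 11.8 in Δclr-3, so it fell there and rose at 10 h (difference 3.43 ± 0.21, adjusted p = 2.77e-05). The catalase gene cat-3 did the reverse, with 25.5, 22.5 and 31.1 FPKM in wild type and 60.3, 68.2 and 57.5 in Δclr-3 at 4 h (difference -3.32 ± 0.26, adjusted p = 0.000114). The gene ncw-5, for a cell wall protein, was at 17.1, 17.2 and 12.2 FPKM in wild type and 218, 106 and 73.4 in Δclr-3 at 4 h and at 477, 398 and 351 and 309, 198 and 162 at 10 h, so that wild type was the higher at 10 h, by less than the fold threshold (-0.91 ± 0.18), and the difference was -3.80 ± 0.50.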

How the data were processed

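RNA of mycelia was sequenced in 42 libraries, of which the 6 of wild type and Δclr-3 starved for 10 h are compared here. The deposited values are FPKM per gene and library, made by the authors. Cufflinks 2.2.1 and HISAT2 2.0.5 are listed, with no role, in the submitters' processing notes; neither strandedness nor filters nor the annotation release is given in the sources used here, so overlapping and antisense genes are uncertain. Loci are as deposited and equal those of assembly NC12 for all 9729 genes with coordinates in both, and symbols were matched by locus tag for 9757 of 9758 genes, 1118 with a symbol.

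Of 9758 genes, 12 with a failed estimate in any library were left out. The test was limma 3.58.1 (R 4.3.3; lmFit, contrasts.fit and a trended eBayes) applied to log2(FPKM + 1), for genes whose mean FPKM in the fitted libraries reached 1. The fits used 24 libraries at 10 h, 18 at 4 h and 12 for the time difference, and the code was first tested on simulated data. Depth was implied from the FPKM bounds, assuming Poisson counts and the gene's span; 65.0 to 71.3% of the low counts so implied were whole to within 0.05, so no counts were rebuilt.

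The 19 gene lists hold 165 identifiers, 50 of them without a symbol. The comparison, the lists and the rule for named genes were chosen with earlier results of these data known. The rule named the 15 highest and 15 lowest called genes, every called list member, and the 6 largest time differences in each direction. It also named all members of the cellodextrin transporter and regulator lists. The deposited table of all libraries was not used. Promoter sequences were not analysed here. Replicate numbers were not taken as pairs, since same-numbered libraries deviated together with correlations of 0.259, -0.102 and 0.240 at 10 h.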

Additional observations from a re-analysis of the deposited data

Results flagged for a closer look

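The effect of clr-3 loss differed between 10 h and 4 h, by the test of the difference itself, most in 12 genes. The difference (10 h minus 4 h, log2 scale) was above 0 in am (4.53), NCU01061 (4.07), acu-5 (3.43), NCU04012 (3.21), NCU10107 (3.14) and NCU05852 (2.95). It was below 0 in ncw-5 (-3.80), NCU16024 (-3.32), cat-3 (-3.32), NCU05629 (-3.04), NCU05848 (-3.01) and NCU04482 (-2.99).

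NCU04012 was at 25.7, 25.1 and 33.8 FPKM in wild type and 24.5, 23.6 and 26.8 in Δclr-3 at 4 h, and at 0.357, 0.448 and 0.546 and 6.80, 14.7 and 13.2 at 10 h, so it was under 1 FPKM at 10 h in wild type and above 6 FPKM in the mutant. NCU01061 was at 42.5, 9.70 and 29.1 FPKM in wild type and 0.633, 1.32 and 0.608 in Δclr-3 at 4 h, and below 1 FPKM in all 6 libraries at 10 h. NCU10107 was at 45.1, 15.8 and 59.6 FPKM in wild type and 11.8, 8.91 and 9.33 in Δclr-3 at 4 h, and at 19.5, 19.0 and 13.7 and 38.8, 57.9 and 47.8 at 10 h. NCU05629 was higher in Δclr-3 at 4 h (2.00, 3.02 and 1.05 FPKM in wild type, 21.5, 19.8 and 7.96 in Δclr-3) and overlapped between strains at 10 h (10.8, 7.78 and 7.30 and 7.92, 4.95 and 3.96). NCU05848 was seen at more than 1 FPKM in the 4 h Δclr-3 libraries alone among these 4 groups (4.67, 10.5 and 12.5 FPKM).

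NCU16024 lies on the mitochondrial chromosome (MT:54186-54350). It was listed at 0 in 2 of 3 wild type libraries at 4 h, was at 29.4, 12.3 and 14.1 FPKM in Δclr-3 at 4 h, and at 30.5, 24.9 and 28.7 and 48.4, 36.5 and 35.3 at 10 h; so short a locus gives few fragments. For NCU04482 the 4 h replicates spread widely, at 10.0, 1.55 and 4.47 FPKM in wild type and 20.4, 10.2 and 2.22 in Δclr-3, and its call was lost in 8 of 17 alternatives, with an adjusted p of up to 0.0716. The other 11 kept their call in every alternative in which they were tested. Time and any batch of sequencing cannot be told apart in this difference.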

How the results depend on the processing

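At 10 h the count of 445 called genes ran from 375 (minimum mean of 5 FPKM) to 603 (pseudocount of 0.1). With 1 library left out in turn it ran from 425 to 498. Under the pseudocount of 0.1 the falls outnumbered the rises, with 254 genes higher and 349 lower against 235 and 210. The count was 452 with no filter and 448 with the fit limited to the compared strains. All 69 called genes named by the rule (53 higher, 16 lower) kept their call in every alternative in which they were tested. The time difference called 436 to 647 genes, and 443 to 798 with 1 library left out, against 532. The median-ratio rescaling called 529, 329 above 0 and 200 below 0, against 273 and 259. At 4 h, loss of clr-3 called 708 to 1119 genes with 1 library left out, against 877, and the rescaling called 350 higher and 341 lower. Avicel against starvation called 869 genes, 705 to 1168 with 1 library left out, 399 higher and 187 lower of 586 under the rescaling, and 289 with the fit limited to the 2 groups, where 172 were higher; the cause was not tested.

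Same-numbered libraries did not deviate together throughout, so the numbers were not treated as pairs. With a replicate block, 445 genes were called at 10 h, 545 for the time difference, 886 at 4 h and 880 for Avicel. The p-values rest on the spread between replicate cultures within all groups of a fit, 8 groups at 10 h. Whether that covers a spread between isolates of Δclr-3 is not known, as their number is not given. Low genes are limited by depth.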

Other observations

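Other named genes changed after loss of clr-3 that belong to none of the lists. They were chosen after their values were seen, and their calls under the alternatives are not given here. Of all 210 genes that fell, 66 kept their call under the median-ratio rescaling, so small falls such as those below may depend on the scaling. The alternative oxidase gene aod-1 rose from 8.53, 8.48 and 8.64 FPKM to 46.2, 40.4 and 38.0 (2.15 ± 0.30), and the polyubiquitin gene ubi from 533, 509 and 512 to 1241, 1142 and 1143 (1.18 ± 0.096). The trehalase gene tre-1 fell from 99.6, 105 and 95.8 FPKM to 50.5, 42.9 and 48.2 (-1.07 ± 0.094). The pheromone receptor gene pre-1 fell from 12.2, 12.2 and 11.9 FPKM to 4.94, 5.0 and 4.88 (-1.14 ± 0.11), and the conidiation genes acon-2 (-1.17 ± 0.11) and acon-3 (-1.12 ± 0.25) also fell. Within glycoside hydrolase family 47, whose members trim mannose from glycoproteins, gh47-3 rose from 4.05, 4.01 and 4.24 FPKM to 16.3, 30.2 and 28.1 (2.30 ± 0.16), while gh47-5 fell from 155, 149 and 166 to 47.0, 54.4 and 59.1 (-1.54 ± 0.11) and gh47-8 by a fold change of -1.14 ± 0.11.

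Genes beside clr-3 on chromosome VII were also chosen after their values were seen. Of the 8 genes on one side and the 8 on the other, 5 in total rose, against 2.93% of all genes tested. Not all of these neighbours passed the filter, and on one side the window ends at NCU05855, a gene that rose. As the window was chosen with the values known, nothing is concluded from the count. NCU05852 (VII:4054383-4055501) was at 3.09, 2.25 and 1.29 FPKM in wild type and 32.3, 37.8 and 34.2 in Δclr-3 (3.52 ± 0.14), NCU05854 at 8.81, 9.57 and 7.82 and 31.2, 44.5 and 41.8 (2.03 ± 0.12), and NCU05855 at 2.99, 2.35 and 1.65 and 36.8, 65.2 and 56.1 (3.99 ± 0.22). With NCU05853 these form a run of 4 adjacent loci that starts 18.7 kb from clr-3, and the loci of NCU05854 and NCU05855 overlap. On the other side NCU05841 was at 12.4, 10.8 and 10.1 FPKM and 25.4, 33.2 and 27.4 (1.29 ± 0.14). NCU05845, the nearest locus on that side, was listed at 0 in all 3 wild type libraries and at 0.492, 0.898 and 1.17 FPKM in Δclr-3. Genes between clr-3 and the run, NCU05848 to NCU05851, were not called or did not pass the filter at 10 h.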
